A study of Mus musculus with 20 samples.

Results

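Gene expression in the proximal colon (PC) was compared between mice fed 10% and mice fed 2% resistant potato starch (RPS), using the 5 libraries of each diet, which are 10 of the 20 in the series. All 10 mice were C57BL/6 mice, an inbred laboratory strain, and all had been kept for 6 weeks after weaning on the Total Western Diet (TWD), a feed for rodents composed to match American nutrient intake. They then ate the TWD with 2% or 10% RPS for 3 weeks. The age at collection is not in the labels. Both diets therefore held starch, and the comparison asks what a larger amount adds to a smaller one. The 0% RPS mice were left out, and the 5 libraries of the 5% RPS diet are given beside the results as values only. Each library was 1 sample of a PC segment that held epithelium and muscle, so a lower level may mean fewer cells of a type or less RNA per cell, and these cannot be told apart.

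RPS is raw starch that small intestinal enzymes digest poorly, so that much of it reaches the bacteria of the cecum and colon, which ferment it. The colon epithelium faces those bacteria across a mucus layer, and it holds them off with hydrogen peroxide made by dual oxidase at the cell surface, with secreted and membrane-bound antibacterial proteins, with caspases that sense bacterial lipopolysaccharide inside the cell, and with antibodies that plasma cells of the lamina propria supply. Short-chain fatty acids from fermentation, butyrate above all, are taken up and burned by the absorptive colonocytes.

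Total counts were 20581013 to 26256610 per library at 2% RPS and 24246496 to 32012008 at 10% RPS, and the 10% RPS libraries were the deeper ones (p = 0.0397, two-sided exact permutation test). Between 12476 and 12506 genes were detected per library. Among the defining markers, those of epithelium (Epcam, Krt8, Krt19, Vil1, Cdh1) and of PC epithelium (Car1, Car4, Aqp8, Slc26a3, Muc2) were all in the table, with summed normalised counts (counts divided by the size factor of the library) of 615793 to 865451 at 2% RPS and 752763 to 1143250 at 10% RPS for the latter. Of 5 small intestine markers Fabp6 alone was listed, at 1922 to 8018 at 2% RPS and 518 to 3273 at 10% RPS (adjusted p = 0.328). Smooth muscle markers summed to 89589 to 191011 and 101422 to 172284, and adipocyte markers to 286 to 3041 and 759 to 8249. No marker of T cells (Cd3e, Cd8a, Trac) or neutrophils (S100a8, S100a9, Ly6g) was in the table. The diets accounted for 14.8% of the variance between the 10 libraries over 12331 genes, beside a mean of 11.1% over all 252 assignments of the libraries (exact permutation test, one-sided, p = 0.183).

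Of 12553 genes tested with DESeq2, 22 changed, which is 0.175%, where a change means a fold of at least 1.5 together with an adjusted p no higher than 0.05. Of these, 17 were higher at 10% RPS (0.135% of the genes tested) and 5 lower (0.0398%). Among the higher genes were the dual oxidase pair Duox2 and Duoxa2, lactoperoxidase (Lpo), Lypd8l, a relative of the bacteria-binding surface protein Lypd8, Casp4, and Ido1. The 2 immunoglobulin segments Igkv3-2, which had the highest fold, and Ighg1 were higher too, as were Ceacam10, Ceacam12, the Plet1 antisense RNA Plet1os, and 6 other genes (Chst11, Slc5a3, B3gnt7, Apol7a, Scara5, Rdh16). Lower were Igkv8-28, Igkv2-109, Xlr3b, Rprm, and Cttnbp2. The libraries of the diets did not overlap for 8 of the 17 higher and 3 of the 5 lower genes, and over all genes tested 0.741% did not overlap with 10% RPS higher and 0.996% with 10% RPS lower.

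The edgeR quasi-likelihood test called none of 12306 genes (0%), with a lowest adjusted p of 0.286, although 1108 genes had an unadjusted p under 0.05. Of the 22 genes, 20 entered that test, and all 20 had the same direction and an unadjusted p of 0.00326 or less. These genes had been picked by DESeq2 from the same counts, so their direction and small p in edgeR are no separate support. In a DESeq2 fit over all 20 libraries 7 genes changed (0.0557% of 12561), and 6 of them are among the 22 (Lypd8l, Casp4, Plet1os, Lpo, Igkv8-28, and Ceacam12). Duoxa2 (adjusted p = 0.190), Duox2 (0.199), Igkv3-2 (0.137), and Ido1 (0.108) did not pass in that fit. With the 3 starch diets in 1 fit Ido1 and Igkv3-2 passed, while Duoxa2 (0.0510) and Duox2 (0.0747) did not. Leaving out single libraries gave 5 to 43 genes. The fewest, 5, came without 10% RPS replicate 5, a fit in which independent filtering left 5747 genes with an adjusted p, 5 of the 22 among them, and the counts were 13 without 10% RPS replicate 3, 11 without 2% RPS replicate 2, and 10 without 2% RPS replicate 4, against 43 without 10% RPS replicate 2 and 34 without 2% RPS replicate 5. Duox2, Lypd8l, and Casp4 changed in every one of these 10 fits. Duoxa2 and Ido1 changed in all 9 fits that gave them an adjusted p, Igkv3-2 and Xlr3b in 6 of 6, and Igkv8-28 in 5 of 5, and the other 14 genes each lost the change in at least 1 fit. Libraries 2% RPS replicate 5 and 10% RPS replicates 4 and 5 have label numbers outside the run of the others, and without these 3 there were 18 changed genes, of which 9 are among the 22. Duox2, Duoxa2, and Casp4 were among the 9, and Lypd8l was not (log2 fold change 0.67, adjusted p = 0.192). Others that did not pass in that fit included Ido1 (adjusted p = 0.143), Xlr3b (0.230), Igkv3-2 (0.257), Igkv8-28 (0.249), Lpo (0.0684), and Plet1os (0.162).

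**Figure D1:**
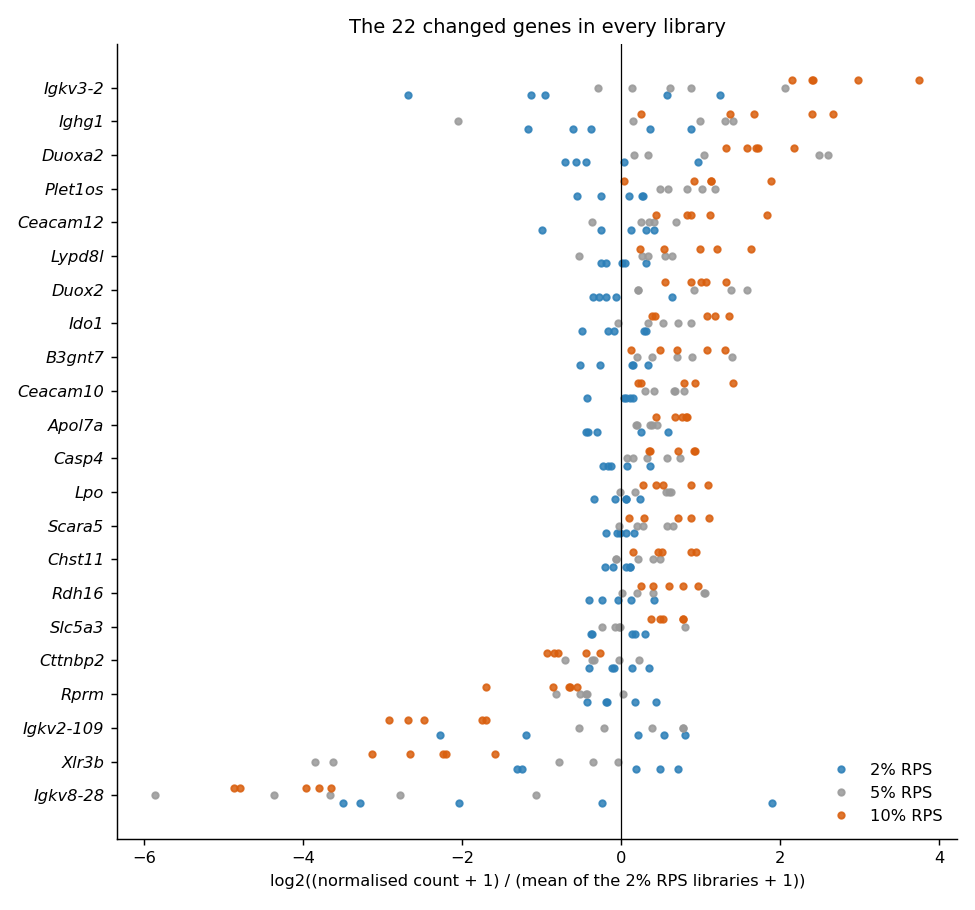
Each changed gene in every library, as log2 of its normalised count plus 1 over the 2% RPS mean plus 1 (horizontal axis), for the 2% (blue), 5% (grey), and 10% RPS (orange) libraries. The 10% RPS points lie to the right of 0 for all 17 higher genes and to the left of 0 for all 5 lower genes, and the 5% RPS points spread over both.

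Duoxa2 rose 3.32-fold and Duox2 1.98-fold. Duox2 codes for the dual oxidase that releases hydrogen peroxide from the epithelial surface, and Duoxa2 for the maturation factor that carries this enzyme out of the endoplasmic reticulum. The genes lie head to head on chromosome 2 of GRCm39, Duox2 (ENSMUSG00000068452) at 122109728 to 122128930 on the minus strand and Duoxa2 (ENSMUSG00000027225) at 122129380 to 122133366 on the plus strand, with 449 bases between their annotated starts. The 250 bases before each start are shown because both genes that start from this interval changed. The 51 capitals are the bases that both windows hold, read from opposite strands.
Duoxa2, chr2:122129130-122129379, plus strand: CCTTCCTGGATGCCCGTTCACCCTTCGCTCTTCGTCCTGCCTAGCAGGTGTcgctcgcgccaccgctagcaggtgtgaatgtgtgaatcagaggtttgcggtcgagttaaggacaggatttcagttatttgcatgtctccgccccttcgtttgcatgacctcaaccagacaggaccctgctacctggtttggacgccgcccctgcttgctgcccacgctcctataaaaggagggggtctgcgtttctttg
Duox2, chr2:122128931-122129180, minus strand: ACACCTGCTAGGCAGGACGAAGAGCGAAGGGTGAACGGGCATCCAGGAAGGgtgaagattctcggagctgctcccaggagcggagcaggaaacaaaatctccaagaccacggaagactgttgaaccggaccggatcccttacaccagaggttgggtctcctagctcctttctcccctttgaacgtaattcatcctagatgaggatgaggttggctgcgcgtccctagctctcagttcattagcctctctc

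Duoxa2 had 86.7, 95.9, 104, 145, and 279 normalised counts in the 2% RPS libraries. At 10% RPS it had 356, 428, 464, 473, and 643. All libraries at 10% RPS lay above all at 2% RPS, with a mean of 473 ± 106 (SD, n = 5) against 142 ± 79.5 and a log2 fold change of 1.73 ± 0.29 (SE, DESeq2 adjusted p = 4.61e-06). Duox2 had 2163, 2286, 2434, 2644, and 4323 normalised counts at 2% RPS and 4071, 5094, 5548, 5787, and 6912 at 10% RPS. Its log2 fold change was 0.98 ± 0.19 (DESeq2 adjusted p = 0.000202), and the single overlap was 1 library at 2% RPS. That library, 2% RPS replicate 5, was the highest of its diet for both genes. Without it the log2 fold changes were 2.13 for Duoxa2 and 1.20 for Duox2. Duoxa2 overlaps Duoxa1 on the other strand, a gene with no row in the table, and whether the counting used strand is not stated. Of the 50-base windows of Duox2 transcripts, 6.05% also occur in Duox1.

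Lpo, a secreted peroxidase that uses hydrogen peroxide, had 608, 730, 802, 806, and 909 normalised counts at 2% RPS and 934, 1044, 1110, 1416, and 1650 at 10% RPS. The libraries of the diets did not overlap, and the log2 fold change was 0.67 ± 0.16 (DESeq2 adjusted p = 0.00854). Lpo did not change without 10% RPS replicate 3 (0.55, adjusted p = 0.0318) or without 2% RPS replicate 2 (0.60, adjusted p = 0.0743). Of the 11 peroxide defence genes measured, 8 were higher at 10% RPS, and Duox2, Duoxa2, and Lpo changed. Over all genes tested 50.3% were higher at 10% RPS, and 0.135% changed in that direction. These shares also stand beside the lists given below. The peroxide list was chosen with earlier results of these data known. The list had a median log2 fold change of 0.17, and all genes tested had one of 0.00.

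**Figure D2:**
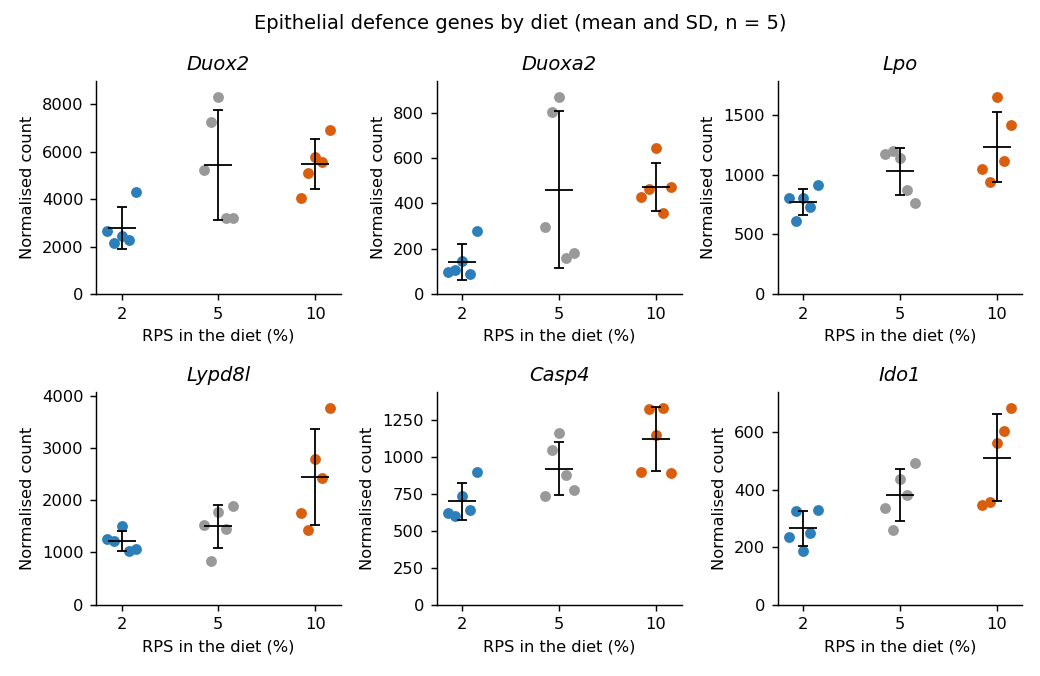
Normalised counts of 6 of the changed genes by percent of RPS in the diet, with 1 point per library and the mean and SD of 5 libraries in black. The 10% RPS means are 1.60 to 3.32 times the 2% RPS level by the fitted folds. The 5% RPS libraries of Duox2 and Duoxa2 range from below to above those at 10% RPS.

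Lypd8l, a relative of the surface protein that keeps flagellated bacteria off the colon epithelium, rose 2.01-fold. It had 1019, 1062, 1219, 1251, and 1508 normalised counts at 2% RPS and 1436, 1757, 2419, 2787, and 3771 at 10% RPS, with a log2 fold change of 1.01 ± 0.22 (DESeq2 adjusted p = 0.00285). A single library at 10% RPS lay below the highest at 2% RPS. Of the 17 secreted or surface antibacterial proteins in the table, 13 were higher at 10% RPS, and Lypd8l alone changed. Ang4, an antibacterial ribonuclease of goblet and Paneth cells, had 152 to 317 against 273 to 479 (log2 fold change 0.62, adjusted p = 0.130), and Sprr2a2, a small proline-rich protein, had 272 to 390 against 333 to 491 (0.37, adjusted p = 0.229). The median log2 fold change of the list was 0.21.

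The list of Ly6, Plet1, and Ceacam surface molecules also holds Plet1os, which is an RNA and not a surface protein. The list had 4 changed members of 14, Plet1os among them, all higher, where 0.135% of all genes tested changed in that direction. Above 0 were 12 of the 14, beside 50.3% of all genes tested, and the median log2 fold change was 0.34. The list was chosen with earlier results of these data known, so these shares describe it and are not a separate test. Lypd8l belongs to this list too. Plet1os, an RNA antisense to the colonocyte surface protein gene Plet1, had 285 to 511 normalised counts at 2% RPS and 433, 795, 921, 923, and 1560 at 10% RPS (log2 fold change 1.14 ± 0.27, adjusted p = 0.00847). The lowest library at 10% RPS was inside the 2% RPS range. Ceacam12 had 30.9 to 83.6 against 85.2, 112, 116, 137, and 226 (1.11 ± 0.31, adjusted p = 0.0455). Ceacam10 had 309 to 462 against 480 to 1106 (0.79 ± 0.22, adjusted p = 0.0394). Both are members of the carcinoembryonic antigen family of adhesion proteins, and neither overlapped between the diets. Ceacam10 changed in 2 of the 9 fits without 1 library in which it was tested, with an adjusted p up to 0.133 without 10% RPS replicate 3, and Ceacam12 in 1 of 6, with up to 0.137 without 2% RPS replicate 1. Plet1os changed in 8 of 9, with an adjusted p of 0.0549 without 2% RPS replicate 5. With the mean level of smooth muscle genes as a covariate Plet1os (adjusted p = 0.101) and Ceacam12 (0.0594) did not pass. Without 2% RPS replicate 5 and 10% RPS replicates 4 and 5 the log2 fold change of Ceacam10 was 0.51 (adjusted p = 0.585). Plet1os and Plet1 cannot be told apart if reads were counted without strand.

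Casp4, which codes for the murine caspase-11 that binds intracellular lipopolysaccharide and starts pyroptosis, had 600, 623, 641, 740, and 899 normalised counts at 2% RPS and 895, 899, 1153, 1329, and 1338 at 10% RPS. A single library at 2% RPS reached the lower edge of the 10% RPS range, and the log2 fold change was 0.68 ± 0.15 (DESeq2 adjusted p = 0.00485). The 21 inflammasome and pyroptosis genes were 12 higher and 9 lower, with a median log2 fold change of 0.03, and Casp4 alone changed. Casp8 had 2618 to 3583 against 3416 to 4276 (0.31, adjusted p = 0.118) and Ripk3, a necroptosis kinase gene, stood at 0.40 (adjusted p = 0.123).

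Ido1, the interferon-induced enzyme that starts tryptophan breakdown to kynurenine, had 188, 236, 250, 325, and 330 normalised counts at 2% RPS and 347, 358, 562, 603, and 685 at 10% RPS. All libraries at 10% RPS were above all at 2% RPS, and the log2 fold change was 0.94 ± 0.22 (DESeq2 adjusted p = 0.00657). Its upstream 250 bases are shown because Ido1 was the single changed gene with letters of the interferon-stimulated response element (ISRE), which reads GAAA, any 2 bases, GAAA on either strand, from 250 bases before to 50 after its start. The capitals mark the match, whose first base lies 66 bases before the start.
Ido1, chr8:25087026-25087275, minus strand: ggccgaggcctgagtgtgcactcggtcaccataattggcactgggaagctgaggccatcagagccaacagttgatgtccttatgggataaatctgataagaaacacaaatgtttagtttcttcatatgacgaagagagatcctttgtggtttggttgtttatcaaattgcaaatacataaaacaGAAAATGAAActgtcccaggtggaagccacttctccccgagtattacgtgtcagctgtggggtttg
The same letters stood in 3.44% of 12681 windows of this kind, so a match in 1 of the 22 changed genes is near the share of all genes. TTCNNNGAA, the letters of the gamma-activated site, stood in the windows of 3 of the 22 changed genes (Igkv2-109, Rdh16, Scara5) and in 7.26% of all windows.

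Interferon-stimulated genes were 32 higher and 8 lower of 40, with a median log2 fold change of 0.16, but none changed. The mean log2 level of the list was 8.72 to 8.98 per library at 2% RPS and 8.86 to 9.17 at 10% RPS, with overlap between the diets. Irf7, the transcription factor that amplifies type I interferon, had 2123, 2379, 2452, 2670, and 3806 normalised counts at 2% RPS and 2921, 3277, 5108, 6726, and 7200 at 10% RPS. Libraries at 10% RPS fell into a low pair inside the 2% RPS range and a high trio above it. Its log2 fold change of 0.91 ± 0.29 had an adjusted p of 0.118 over the 10 libraries and of 0.0166 over all 20. Trim25, the ubiquitin ligase that activates the RNA sensor RIG-I, passed the adjusted p (0.0305) with a log2 fold change of 0.25, under the fold threshold. Oas3, an antiviral oligoadenylate synthetase, had 99.8 to 283 against 203 to 413 (0.68, adjusted p = 0.303). Of 13 interferon-gamma induced genes 12 were higher (median 0.20), and Ido1 was the 1 that changed. Ifi47 and Gbp7, interferon-induced GTPases, had log2 fold changes of 0.32 (adjusted p = 0.313) and 0.28 (0.496).

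Antigen presentation genes leaned the same way without a changed member. MHC class I genes were 17 higher and 5 lower (median log2 fold change 0.08), led by H2-T3, which was lower (-0.29, adjusted p = 0.135), the immunoproteasome subunit Psmb8 (0.29, adjusted p = 0.356), and B2m (0.27, adjusted p = 0.381). MHC class II genes were 6 higher and 1 lower (median 0.16), with Cd74 at 0.19 (adjusted p = 0.619). Macrophage genes were 8 higher and 2 lower (median 0.11, and -0.02 without 2% RPS replicate 5 and 10% RPS replicates 4 and 5), with Cd68 at 0.30 (adjusted p = 0.513).

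Immunoglobulin genes changed in both directions, 2 higher and 2 lower of 110 tested, beside 0.135% and 0.0398% of all genes tested. Above 0 were 61 and below 0 were 49, beside 50.3% of all genes above 0, and the median log2 fold change was 0.12. That median was -0.06 without 10% RPS replicate 5, -0.06 without 2% RPS replicate 3, and -0.10 without 2% RPS replicate 5 and 10% RPS replicates 4 and 5. Ighg1, the constant region of IgG1, had 51.7, 77, 90.7, 153, and 219 normalised counts at 2% RPS and 141, 307, 380, 628, and 754 at 10% RPS (log2 fold change 1.90 ± 0.53, adjusted p = 0.0451). Igkv3-2, a kappa light chain variable segment, had 1.1, 5.16, 5.93, 19.2, and 31 against 59, 70.3, 71.1, 105, and 181, with no overlap (2.97 ± 0.57, adjusted p = 0.000202). Igkv8-28 went the other way, with 4.13, 4.97, 13.2, 48.4, and 215 at 2% RPS and 0.983 to 3.65 at 10% RPS (-4.61 ± 1.12, adjusted p = 0.00987). The 10% RPS values are around the floor of 3 counts per library, so that fold depends on very few reads. It depends on 2% RPS replicate 5 as well, since without that library the 2% RPS mean fell from 57.2 to 17.7 and the log2 fold change was -2.91, with no adjusted p given. Igkv2-109 had 5.16 to 51.4 against 2.95 to 8.22 (-2.40 ± 0.62, adjusted p = 0.0208). Ighg1 changed in 3 of the 9 fits without 1 library, with an adjusted p up to 0.183 without 10% RPS replicate 3, and Igkv2-109 in 3 of 6, with up to 0.117 without 2% RPS replicate 2. How many plasma cell clones used each segment was not measured. Between 18.1% and 21.3% of the 50-base windows of the 3 kappa segments also occur in sister segments. Neither Igkv8-28 nor Igkv2-109 passed the expression filter of edgeR. Without 2% RPS replicate 5 and 10% RPS replicates 4 and 5 none of the 4 passed, with adjusted p values of 0.249 to 0.687.

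Plasma cell genes stood beside these values. Of 6, 5 were higher (median log2 fold change 0.42, none changed), with Jchain at 1452 to 3881 against 2468 to 5037 (adjusted p = 0.650), and their mean log2 level was 7.89 to 8.61 at 2% RPS and 8.27 to 8.94 at 10% RPS. All immunoglobulin genes together took 0.0494 to 0.140% of counts at 2% RPS and 0.0782 to 0.150% at 10% RPS. The part of plasma cell number in the immunoglobulin results was not tested. B cells were represented by Cd79a (0.03, adjusted p = 0.990) and Cd79b (0.04, adjusted p = 0.989), and the 6 T cell genes had a median of -0.25, with Ikzf2 at 0.45 (adjusted p = 0.356) and Gzma, a granule protease, at -0.79 (adjusted p = 0.551).

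The 6 further genes rose between 1.52- and 1.75-fold. B3gnt7, an acetylglucosaminyltransferase that extends keratan sulfate and other glycan chains, had 347 to 629 normalised counts at 2% RPS and 545 to 1232 at 10% RPS (log2 fold change 0.80 ± 0.22, adjusted p = 0.0423). Chst11, a chondroitin sulfotransferase, had 297 to 369 against 378 to 660 with no overlap (0.62 ± 0.15, adjusted p = 0.0122). Slc5a3, the sodium/myo-inositol cotransporter, had 659 to 1056 against 1113 to 1482 with no overlap (0.60 ± 0.15, adjusted p = 0.0134), and it had the smallest fold of the changed genes. Its exons lie within the Mrps6 locus on the same strand, so counts of the pair are uncertain. Scara5, a scavenger receptor that takes up ferritin, had 220 to 280 against 268 to 542 (0.67 ± 0.18, adjusted p = 0.0440). Rdh16, a retinol dehydrogenase, had 367 to 647 against 576 to 948 (0.62 ± 0.17, adjusted p = 0.0472). Apol7a, an apolipoprotein L family gene, had 295 to 605 against 542 to 710 (0.71 ± 0.20, adjusted p = 0.0423). Apol7a and Rdh16 share 14.0% and 13.3% of their 50-base windows with paralogs. Scara5, Rdh16, and Apol7a each changed in 3 of the 9 fits without 1 library that gave them an adjusted p, and all reached their highest adjusted p without 2% RPS replicate 2 (0.165, 0.193, and 0.214). B3gnt7 changed in 5 of 9 fits, with an adjusted p up to 0.165 without 10% RPS replicate 3. Chst11 changed in 6 of 9 and Slc5a3 in 6 of 10, with up to 0.0622 without 10% RPS replicate 3 and 0.0859 without 2% RPS replicate 2. With the smooth muscle level as a covariate Scara5 (adjusted p = 0.0664) and Rdh16 (0.0558) did not pass. Among the 19 retinoid metabolism genes Rdh16 alone changed, and the retinol carrier Rbp4 (0.53, adjusted p = 0.0699) and the retinol dehydrogenase Dhrs9 (0.44, adjusted p = 0.123) did not pass.

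Lower at 10% RPS beside the 2 kappa segments were Xlr3b, Rprm, and Cttnbp2. Xlr3b, an X-linked lymphocyte-regulated gene, had 15.5, 16.1, 45.4, 56.3, and 66 normalised counts at 2% RPS and 3.65 to 12.6 at 10% RPS (log2 fold change -2.41 ± 0.52, adjusted p = 0.00196). Of its 50-base windows 53.5% occur in related genes such as Xlr3a and Xlr3c, so its counts are uncertain. Rprm, which codes for the cell cycle inhibitor reprimo, had 180, 212, 214, 273, and 329 against 73.9, 132, 153, 154, and 164 with no overlap (-0.83 ± 0.23, adjusted p = 0.0423). Cttnbp2, a cortactin-binding protein of neurons, had 295 to 499 against 203 to 325 (-0.63 ± 0.17, adjusted p = 0.0429). Rprm changed in 5 of 8 fits without 1 library, with an adjusted p up to 0.218 without 2% RPS replicate 2, and Cttnbp2 in 4 of 9, with up to 0.199 without 2% RPS replicate 1. Neither Rprm (adjusted p = 0.0714) nor Cttnbp2 (0.0774) passed with the smooth muscle level as a covariate. Enteric neuron and glia genes were 17 lower and 3 higher of 20, with a median of -0.21. Chrnb4, a nicotinic receptor subunit of that list, ran against it, with 528 to 600 at 2% RPS and 623 to 757 at 10% RPS (0.35 ± 0.08, adjusted p = 0.00285), as did Gfap (0.46, adjusted p = 0.229). The share of neurons in the segments and its part in these values were not tested.

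The position of the 5% RPS libraries, which did not enter the 10-library test, differed between genes. Of the 22 changed genes 21 had a 5% RPS mean between the other means, the exception being Igkv2-109, and the mean was nearer to 10% RPS for 11 and nearer to 2% RPS for 11. These genes were picked because their 2% and 10% RPS means lay far apart. A 5% RPS mean between them is therefore likely with or without a graded response. The count was not compared with that of all genes tested. Duox2, Duoxa2, Rdh16, and B3gnt7 had means at 5% RPS close to those at 10% RPS, 5446, 462, 742, and 856 against 5482, 473, 747, and 870. Duoxa2 had 159, 180, 295, 804, and 871 at 5% RPS, with a median of 295 against 464 at 10% RPS, so its 5% RPS mean rested on the high libraries. Duox2 ranged from 3214 to 8316 at 5% RPS, with a pair of low libraries, 3214 and 3217, below the lowest at 10% RPS, 4071. Lypd8l (mean 1499), Ceacam12 (77.8), Slc5a3 (949), and Igkv3-2 (24.5) were still close to 2% RPS at 5% RPS. Irf7 had the same mean at 5% as at 2% RPS, 2682 against 2686. No test was made of 5% RPS here.

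A larger number of genes passed the adjusted p without the fold threshold, 90 in all (0.717%), of which 45 were lower (0.358%). At an unadjusted p under 0.05, 5.36% of the genes tested were higher and 4.45% lower. The nearest changed gene inside the fold threshold was Slc5a3 (0.60) and the nearest outside it Tsku (-0.56, adjusted p = 0.0313), a small secreted proteoglycan, chosen for naming after its value was seen. Outside the adjusted p stood Cckar (-0.76, adjusted p = 0.0688), the cholecystokinin receptor, first among 266 genes with a fold of 1.5 or more. Among the genes higher with small folds were several of the absorptive surface. Slc10a2, the apical sodium-dependent bile acid transporter, had 8101 to 9868 at 2% RPS and 10734 to 16312 at 10% RPS with no overlap (0.52 ± 0.11, adjusted p = 0.00285). Slc5a8, the sodium-coupled transporter of butyrate and other monocarboxylates, had 2821 to 3606 against 3723 to 5466 with no overlap (0.47, adjusted p = 0.00958). Car4, the brush-border carbonic anhydrase of PC colonocytes, had 8434 to 10676 against 10724 to 13538 with no overlap (0.39 ± 0.09, adjusted p = 0.00610). Over all 20 libraries in 1 fit neither Slc10a2 (adjusted p = 0.727) nor Car4 (0.154) passed. None of the butyrate transport and sensing genes, Slc5a8 among them, passed there either.

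Signalling and membrane genes made up the remainder of the named genes with small increases. Rasef, a Ras and EF-hand domain protein, had 963 to 1135 at 2% RPS and 1312 to 1489 at 10% RPS (0.43 ± 0.07, adjusted p = 2.45e-06), the smallest adjusted p of any higher gene. Atp2b1, a plasma membrane calcium pump, had 8469 to 9703 against 10517 to 13606 (0.39 ± 0.08, adjusted p = 0.000810). Tnfrsf1b, a receptor for tumour necrosis factor, had 579 to 667 against 745 to 1082 (0.47 ± 0.11, adjusted p = 0.00854). The phospholipid-binding copine gene Cpne2 (0.30, adjusted p = 0.000535), the ciliary GTPase gene Arl13b (0.33, adjusted p = 0.00511), the flippase subunit gene Tmem30a (0.22, adjusted p = 0.00607), and Socs6 (0.24, adjusted p = 0.00610), a suppressor of cytokine signalling, were likewise without overlap between the diets. With all 20 libraries in 1 fit Rasef (adjusted p = 0.224), Atp2b1 (0.180), Tnfrsf1b (0.401), and Cpne2 (0.0516) did not pass the adjusted p. Tmem30a (0.00672), Arl13b (0.0198), and Socs6 (0.0375) did.

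On the lower side the adjusted p was reached mostly by genes of the protein synthesis machinery. Ribosomal protein genes, a list drawn up after the values were seen, were lower at 10% RPS for 79 of 82 members, and 29 passed the adjusted p (35.4%, beside 0.358% of all genes tested). These 29 were 29 of the 40 genes that were lower at the adjusted p with a fold under 1.5. The decreases were small, with a median log2 fold change of -0.18, or -11.6%, and between -0.26 and -0.15 for the 29. Rplp0, the stalk protein of the large subunit, had 36735, 37847, 38709, 38902, and 38993 normalised counts at 2% RPS and 32802, 33049, 33397, 33624, and 34402 at 10% RPS (-0.19 ± 0.03, adjusted p = 2.45e-06). Rps19 of the small subunit had 5077, 5141, 5149, 5284, and 5329 against 4455, 4492, 4552, 4575, and 4602 (-0.20 ± 0.03, adjusted p = 2.45e-06). For both, the spread within the 2% and within the 10% RPS diet was smaller than the step between these diets. The 5% RPS libraries spread more widely, from 33522 to 39564 for Rplp0 and from 4620 to 5418 for Rps19.

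The remaining ribosomal protein genes named by the rule, Rpl26, Rpl10a, Rps6, Rps9, and Rpl32, had log2 fold changes of -0.18, -0.22, -0.18, -0.25, and -0.21 with no overlap. In all, 36 of the 82 did not overlap with 10% RPS lower (43.9%, beside 0.996% of all genes tested). Ribosomal protein genes took 2.78 to 2.89% of all counts at 2% RPS, 2.36 to 2.51% at 10% RPS, and 2.47 to 2.92% at 5% RPS. Translation factors, also listed after the values were seen, were 29 lower and 22 higher of 51 (median -0.01). Eif3f, a subunit of the initiation factor eIF3, had 4130 to 4506 against 3333 to 3674 (-0.30 ± 0.05, adjusted p = 2.45e-06), Eef1b2, an exchange factor of elongation factor 1, had 12528 to 13448 against 10842 to 11644 (-0.20 ± 0.04, adjusted p = 6.75e-05), and Eef1d did not pass (-0.15, adjusted p = 0.0535). Nuclear genes of oxidative phosphorylation leaned lower in 78 of 83 with a median of -0.08, and none passed. The smallest p among them was that of Cox7a2l, at 5394 to 6243 against 4500 to 5364 (-0.23, adjusted p = 0.105).

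Several measures moved beside the ribosomal protein result. Total counts were higher at 10% RPS, as given above. Short transcripts were on balance lower among genes with a mean of at least 10, with 63.3% of the 3078 genes in the shortest of 4 equal bins of transcript length below 0 (median log2 fold change -0.04) and 36.7% of the 3077 in the longest bin (0.04). The 1628 other genes that were at most as long as the 90th percentile of the ribosomal protein genes and at least as abundant as their 10th percentile had a median of -0.01 and 56.3% below 0. Without any 1 library the median of the ribosomal protein genes was -0.19 to -0.16, and 15 to 39 members passed the adjusted p. Over all 20 libraries in 1 fit 2 members passed, without 2% RPS replicate 5 and 10% RPS replicates 4 and 5 1, and with edgeR none, although 61 had an unadjusted p under 0.05 in edgeR. The part of depth and transcript length in the decrease was not tested.

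**Figure D3:**
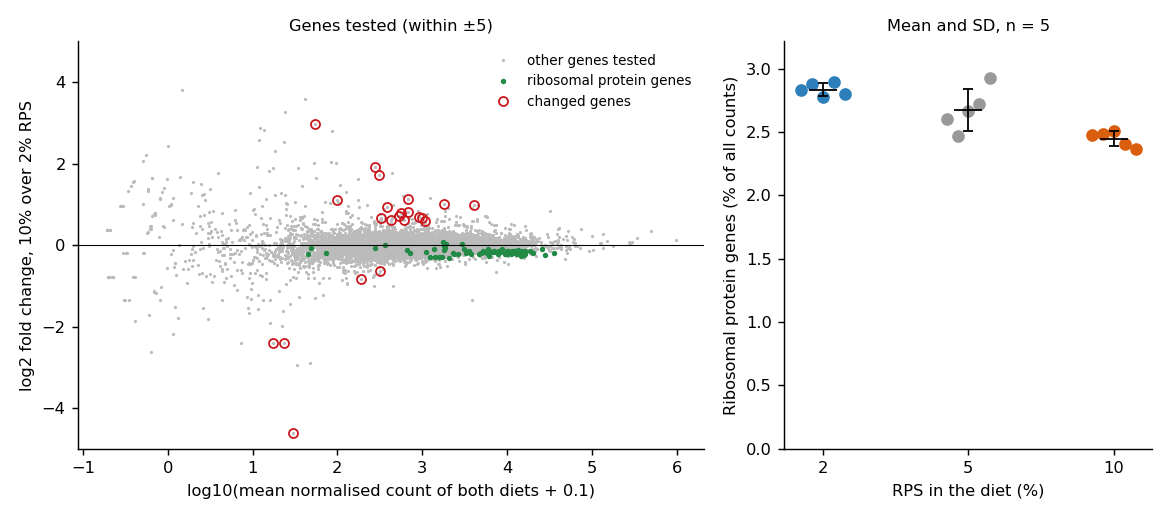
Left, log2 fold change of each gene tested (vertical axis, 10% over 2% RPS, shown within 5 of 0) against log10 of its mean normalised count plus 0.1, with ribosomal protein genes in green and changed genes circled in red. Right, share of all counts in ribosomal protein genes per library by percent of RPS, with mean and SD of 5 libraries: the 2% RPS libraries sit at 2.78 to 2.89% and the 10% RPS libraries at 2.36 to 2.51%.

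Absorptive and secretory functions showed little beyond single genes. The 13 absorptive colonocyte genes had a median log2 fold change of 0.02 and Car4 alone passed the adjusted p, with Aqp8, a water channel, at 124 to 2829 at 10% RPS (adjusted p = 0.718) and Guca2b, the peptide uroguanylin, at -0.15 (adjusted p = 0.621). The 15 butyrate transport and sensing genes had a median of 0.03, Slc5a8 alone passed, and Hdac1 (0.22, adjusted p = 0.384) and the fatty acid receptor gene Ffar3 (-0.42, adjusted p = 0.635) did not. Fatty acid oxidation and ketogenesis genes were 12 higher and 12 lower, among them Eci1, Ppara, and Oxct1 at -0.17, -0.25, and -0.16 (adjusted p from 0.379 to 0.490). Goblet cell genes were 10 higher and 6 lower (median 0.15, and -0.01 without 2% RPS replicate 5 and 10% RPS replicates 4 and 5). Agr2, a disulfide isomerase needed for mucin folding, had 29911 to 40095 against 33471 to 64032 (0.42, adjusted p = 0.260), and the goblet cell channel gene Best2 had 118 to 214 against 46.6 to 131 (-0.95, adjusted p = 0.0837). Salt and water transport genes had a median of 0.06, with the cytosolic carbonic anhydrase gene Car2 at 13390 to 14976 against 14935 to 17194 (0.18, adjusted p = 0.0875), the sodium channel subunit gene Scnn1b at 0.50 (adjusted p = 0.353), and Hsd11b2 at -0.33 (0.482). Tight junction genes had a median of 0.07, with claudin genes Cldn23 (0.41, adjusted p = 0.0946) and Cldn2 (0.48, adjusted p = 0.240).

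The cholesterol synthesis, lipid absorption, and xenobiotic metabolism lists held no changed member. Cholesterol synthesis genes were 20 lower and 4 higher (median -0.10), with Mvd at -0.26 (adjusted p = 0.773) and Fdft1 at -0.23 (adjusted p = 0.814). Lipid absorption genes had a median of -0.08, with Apoa1, a small intestinal apolipoprotein, at 11.9 to 88.7 against 0.983 to 17.4 (-1.99, adjusted p = 0.115) and Mogat2 at 0.58 (adjusted p = 0.358). Xenobiotic and aldo-keto metabolism genes were 15 higher and 22 lower (median -0.02), and Ugt1a7c, a glucuronosyltransferase, had 2492 to 2844 against 2884 to 3292 with no overlap (0.20, adjusted p = 0.0688).

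Crypt, endocrine, and wall lists showed leanings without changed members. Cell cycle genes were 25 higher and 4 lower (median 0.16), with Bub1 at 0.36 (adjusted p = 0.479) and Top2a at 0.25 (0.690). Stem cell and Wnt genes had a median of -0.01, with Smoc2 at -0.34 (adjusted p = 0.0875) and Cd44 at 0.50 (0.274). Heat shock genes were 15 higher and 2 lower (median 0.21), with Hspd1 at 0.22 (adjusted p = 0.436) and Hsp90aa1 at 0.49 (0.598). Tuft cell genes were lower for all 10 (median -0.19), with Ptgs1 at -0.29 (adjusted p = 0.348). The enteroendocrine list had a median of -0.12, and it also holds Cckar, a hormone receptor gene and not a hormone gene. Cckar (-0.76, adjusted p = 0.0688) and the peptide YY gene Pyy (-0.37, adjusted p = 0.333) were lower. The serotonin synthesis gene Tph1 (0.65, adjusted p = 0.230) was higher. All 14 smooth muscle genes were lower (median -0.13, smallest p in Kcnmb1 at -0.36, adjusted p = 0.611), with a mean log2 level of 13.0 to 14.0 per library at 2% RPS and 13.2 to 13.8 at 10% RPS. With the smooth muscle level as a covariate 23 genes changed, 16 of them among the 22. Those of the 22 that did not pass were Plet1os, Ceacam12, Scara5, Rdh16, Rprm, and Cttnbp2. Extracellular matrix genes had a median of 0.02, with Fbln1 at -0.46 (adjusted p = 0.187). Immediate-early genes had a median of -0.04, and clock genes a median of -0.27, with Per1 at -0.48 (adjusted p = 0.374). Genes that mark position along the colon were 21 lower and 4 higher (median -0.11), led by the homeobox genes Hoxa5 (-0.74, adjusted p = 0.104), Hoxa3 (-0.34, 0.202), and Hoxa9 (-0.73, 0.240). The part of the segment's position or muscle content in the changed genes was not otherwise tested.

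**Figure D4:**
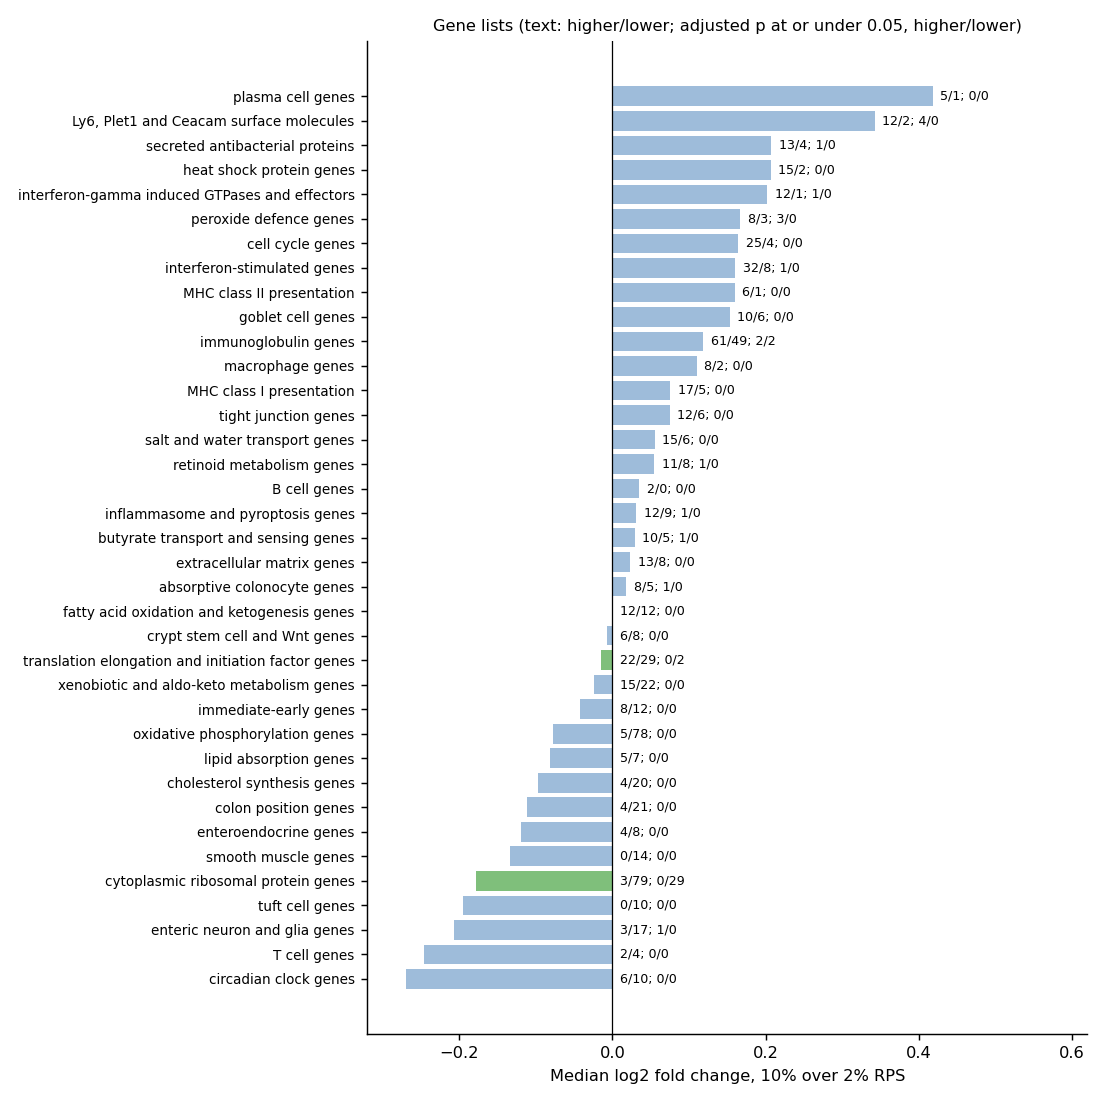
Median log2 fold change of each gene list, 10% over 2% RPS (horizontal bars, blue for the lists used throughout and green for the lists drawn up after the values were seen). Numbers beside the bars give the members higher and lower and, after the semicolon, those past the adjusted p in each direction. Ribosomal protein genes have the most members past the adjusted p, 29 of 82. Of the 14 members of the surface molecule list 4 passed it, the antisense RNA Plet1os among them. All lists were chosen with earlier results of these data known.

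**Figure D5:**
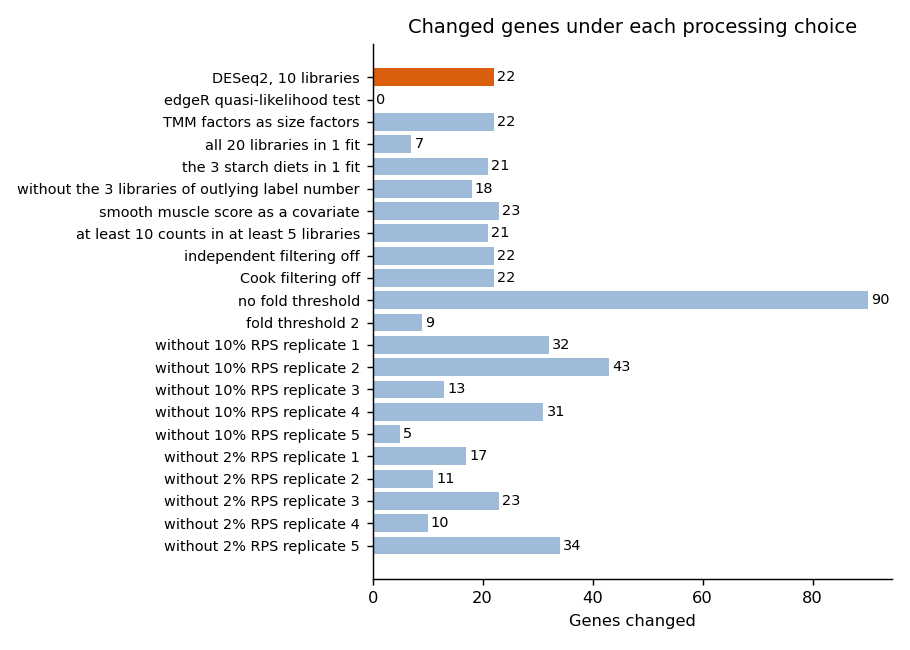
Number of changed genes (horizontal axis) under each processing choice, with the 10-library DESeq2 result in orange. The count is 22 in that result, 0 with edgeR, 7 with all 20 libraries, 90 without the fold threshold, and 5 to 43 without single libraries.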

How the data were processed

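RNA from a PC segment of each mouse was sequenced by the authors as single-end reads from stranded mRNA libraries. Per the methods of the study, low-quality bases and ambiguous reads were removed and the rest aligned and counted in CLC Genomics Workbench on GRCm39. The deposited values are raw whole-number read counts per Ensembl gene, neither normalised nor pooled by the authors. The gene annotation, strand use, handling of reads with several matches, and rule that left 12701 genes are not stated. The labels do not tell whether mice shared a litter or cage, so p-values measure the spread between these samples.

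Libraries were grouped by the treatment in their labels. DESeq2 (1.42.0, R 4.3.3) was run on the 10 libraries with diet as the term, Wald test, and default filtering. Adjusted p values (Benjamini-Hochberg, 12553 genes) are from DESeq2 unless edgeR or an exact test is named. Genes changed at 0.05 or less with an unshrunken fold of 1.5 or more. No adjusted p was given to 132 genes with 0 counts and 16 that Cook filtering removed. Normalised counts are counts divided by size factors computed for these 10 libraries. The share of variance used variance-stabilised values of genes with a mean of at least 10. The floor of 3 counts, 0.0937 to 0.146 CPM, allows for counting error alone. edgeR (4.0.16) and the other settings of the closing section were alternatives. Scripts were tested on simulated data. Symbols, coordinates, transcripts, and sequence are GENCODE M39 on GRCm39 (12682 genes matched).

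The comparison, gene lists, and tests were chosen with earlier results of these data known. Named were changed genes, those changed over all 20 libraries, up to 10 more per direction of smallest p without overlap, and in each list the changed members and the 3 of smallest p, of which some are given by count alone and some are not reported here.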

Additional observations from a re-analysis of the deposited data

Results flagged for a closer look

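In 94 groups of 5 libraries, 4 held a library whose gap to the nearest of the others was over 0.710 of the range of the group, and chance flags about 1 in 20 groups. At 2% RPS replicate 5 was high for Duox2, with 4323 normalised counts (gap over range 0.777), and for Igkv8-28, with 215 (0.790). Replicate 3 at 2% RPS was low for Ceacam10, with 309 (0.755). Replicate 5 at 10% RPS was high for Tnfrsf1b, with 1082 (0.738). Without 2% RPS replicate 5 the log2 fold change of Duox2 was 1.20 (DESeq2 adjusted p = 6.04e-15). Without 2% RPS replicate 3 that of Ceacam10 was 0.70 (adjusted p = 0.0838).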

How the results depend on the processing

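No paired analysis was possible because the labels give no replicate number shared between the diets. The 22 changed genes became 0 with edgeR, 7 with all 20 libraries in 1 fit, 90 without a fold threshold, and 9 with a fold threshold of 2, and ranged from 5 to 43 without single libraries. The other settings gave 18 to 23, with 22 of the 22 shared under TMM factors, 21 under a filter of at least 10 counts in at least 5 libraries, 16 with the smooth muscle covariate, 15 with the 3 starch diets, and 9 without 2% RPS replicate 5 and 10% RPS replicates 4 and 5. Of the 43 genes tracked one by one, none reversed in any setting that gave an adjusted p, and 20 lost their call with edgeR and 16 with all 20 libraries. The share of variance was 14.7 to 15.8% with other values or gene sets and 12.9 to 20.2% without single libraries, and passed its threshold without 10% RPS replicate 1, at 20.2% (exact p = 0.0476). The causes were not tested. Median log2 fold changes of lists moved by less than the SD between libraries in 590 of 592 refits, yet the medians of 15 of the 37 lists had the other sign in at least 1 refit, each of them within 0.153 of 0 over the 10 libraries. Without 2% RPS replicate 5 and 10% RPS replicates 4 and 5 the medians of 7 lists did, immunoglobulin (-0.10), extracellular matrix (-0.03), macrophage (-0.02), goblet cell (-0.01), translation factor (0.01), xenobiotic metabolism (0.01), and lipid absorption genes (0.002). The sign also turned without single libraries for fatty acid oxidation genes in 6 fits, B cell and stem cell genes in 5, immediate-early genes in 4, absorptive colonocyte and butyrate genes in 2, and inflammasome genes in 1, and for smooth muscle genes (0.02) with their own score as the covariate. At these depths the kappa segments Igkv3-2, Igkv2-109, and Igkv8-28 had an adjusted p in 6, 6, and 5 of the 10 fits without 1 library.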
